A study of Mus musculus with 4 samples.

Results

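Calb2, Pvalb, Reln and Dlx1 are 4 genes that neuroanatomists use to tell inhibitory interneurons of the forebrain apart. They were chosen by name, and all 4 are among the 5282 genes of the authors' deposited table. RNA came from mouse cortex pooled with the underlying corpus callosum, taken on postnatal day 15. The SmoM2 group (2 samples) had the genotype Pdgfra-creER;SmoM2, in which a tamoxifen-inducible Cre, driven by the promoter of Pdgfra, switches on SmoM2, a constitutively active Smoothened. The WT group (2 samples) was wild type, and both groups received tamoxifen from postnatal day 5 to 7. Pdgfra is known from oligodendrocyte precursors and fibroblasts rather than from cortical interneurons. The labels do not say whether each sample was a separate animal, and p-values then measure only the spread between these samples, which may be technical.

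Cortical interneurons use GABA as their transmitter and fall into classes that are told apart by a calcium-binding protein or a peptide. Calb2 encodes calretinin and Pvalb encodes parvalbumin, both EF-hand proteins that buffer calcium. Parvalbumin marks fast-spiking basket and chandelier cells and appears late, during the postnatal weeks in which these cells mature, whereas calretinin marks a class that largely targets other interneurons and is also found in Cajal-Retzius cells and olfactory bulb granule cells. Reln encodes reelin, a large secreted glycoprotein that guides the layering of the cortex, made first by Cajal-Retzius cells and later by interneurons. Dlx1 encodes a homeodomain transcription factor that specifies interneurons in the ganglionic eminences and stays on in part of the mature cells.

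In GRCm38 with the GENCODE M21 annotation, Calb2 (ENSMUSG00000003657) lies on chromosome 8 from 110137502 to 110168210, and its longest coding transcript has 11 exons and 271 codons. Pvalb (ENSMUSG00000005716), on chromosome 15 from 78191114 to 78206400, has 4 exons and 110 codons. Reln (ENSMUSG00000042453) covers 460249 bases of chromosome 5, from 21884454 to 22344702, with 65 exons and 3461 codons. Dlx1 (ENSMUSG00000041911) is the shortest of the 4, on chromosome 2 from 71528113 to 71533981, with 3 exons and 255 codons. The antisense gene Dlx1as spans all of Dlx1 on the opposite strand. The sources used here do not say whether the counting used strand, so reads of Dlx1as cannot be told apart from those of Dlx1.

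RefSeq upstream windows on GRCm38.p6 were matched for 3 of the 4 genes, Pvalb, Reln and Dlx1. The 250 bases before the annotated start are printed 5′ to 3′ for Reln, which was higher in SmoM2, and for both starts of Pvalb, which was lower, because these genes moved in opposite directions and differ in base composition. Capitals mark CpG dinucleotides. The windows, all on the minus strand, are chr5:22344706-22344955 for Reln, chr15:78206401-78206650 for the distal start of Pvalb and chr15:78204238-78204487 for its proximal start.
Reln: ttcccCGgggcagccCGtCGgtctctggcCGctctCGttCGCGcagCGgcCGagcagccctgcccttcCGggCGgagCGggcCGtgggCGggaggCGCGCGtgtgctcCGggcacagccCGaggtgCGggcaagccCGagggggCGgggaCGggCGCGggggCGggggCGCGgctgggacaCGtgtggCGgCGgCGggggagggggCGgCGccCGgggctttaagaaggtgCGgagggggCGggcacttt
Pvalb distal: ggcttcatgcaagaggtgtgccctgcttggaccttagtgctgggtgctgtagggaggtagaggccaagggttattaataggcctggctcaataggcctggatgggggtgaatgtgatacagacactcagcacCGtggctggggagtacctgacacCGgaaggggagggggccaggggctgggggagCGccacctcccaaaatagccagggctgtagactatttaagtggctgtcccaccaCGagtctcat
Pvalb proximal: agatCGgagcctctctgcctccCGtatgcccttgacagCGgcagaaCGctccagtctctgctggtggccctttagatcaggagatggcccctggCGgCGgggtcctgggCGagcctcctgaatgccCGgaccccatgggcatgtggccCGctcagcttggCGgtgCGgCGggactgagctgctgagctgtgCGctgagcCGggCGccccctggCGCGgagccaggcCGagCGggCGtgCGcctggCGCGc
The Reln window held 37 CpG and was 80.0% G or C, against a median of 6 CpG and 52.4% over 32851 windows of the same length, and 97.8% of windows held fewer CpG. The distal Pvalb window held 4 CpG and the proximal window 23. The GC box, GGGCGG on either strand, was found 6 times in the Reln window and in neither Pvalb window, and 32.7% of all windows held it. The window of Dlx1, which like Reln was higher in SmoM2, held 22 CpG, was 68% G or C and had no GC box. A link between base composition and direction was not tested. The letters TGGGTGGTC, a core bound by the GLI factors of hedgehog signalling, were searched on both strands and occurred in no window of Pvalb, Reln or Dlx1, and in 0.225% of all windows.

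Calb2, Reln and Dlx1 rose in SmoM2 and Pvalb fell, where "rose" and "fell" mean that the authors' deposited table lists a p of at most 0.05 after adjustment. By the same rule 21.3% of the listed genes rose and 16% fell, 37.3% together, or 3.45% of the 57010 tests the authors adjusted over. No row of the table exceeds 0.05 before adjustment, so the call itself is common there. The shares of 21.3% and 16% are the background for each count of genes that rose or fell below. Values below are the authors' expression levels, scaled for library size and, with RSEM, for gene length, and whether the unit is TPM or FPKM is not stated. Smo, the gene altered by design, read 10.7 and 11.0 in SmoM2 against 7.12 and 5.75 in WT.

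Calb2 had a level of 123 in SmoM2 replicate 1 and 108 in replicate 2, against 70.0 and 52.5 in WT. Both SmoM2 samples lay above both WT samples, and the lower SmoM2 value was 1.54 times the higher WT value. Means were 115 ± 10.7 and 61.3 ± 12.4 (SD, n = 2 each), and the limma estimate on log2(level + 1) was 0.91 ± 0.15 (SE). Calretinin RNA was thus the most abundant and the most changed of the 3 genes that rose by this estimate. Its log2 fold change by the authors' deposited table is 0.83, with 2.38e-11 as the adjusted p. In bulk tissue, more cells of a type and more RNA per cell cannot be told apart, here and for the other genes.

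Pvalb moved the other way. Its level was 12.4 in SmoM2 replicate 1 and 19.6 in replicate 2, against 29.4 and 29.0 in WT. The WT samples differed by 1.01 times and the SmoM2 samples by 1.57 times, so that most of the spread lay in SmoM2, and the groups did not overlap. Means were 16.005 ± 5.04 and 29.2 ± 0.269 (SD, n = 2 each), and limma put the log2 difference at -0.86 ± 0.21 (SE). By the authors' deposited table it is -0.95, adjusted p = 0.000239. The lower of the SmoM2 values came from replicate 1, and without it the log2 difference was -0.55 (limma).

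Reln read 48.0 and 54.3 in SmoM2 against 33.6 and 39.2 in WT. Its spread was small in both groups, at 1.13 times between the SmoM2 samples and 1.17 times between the WT samples. Means were 51.1 ± 4.45 and 36.4 ± 3.92 (SD, n = 2 each), and limma put the log2 difference at 0.48 ± 0.12 (SE). By the authors' deposited table it is 0.53, adjusted p = 0.000127. Here SmoM2 replicate 2 was the higher of its pair, unlike for Calb2 and Dlx1.

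Dlx1 was the least even, with a level of 41.4 in SmoM2 replicate 1, 23.8 in replicate 2, and 17.4 and 22.8 in WT. The lower SmoM2 value exceeded the higher WT value by a factor of 1.05, so the groups touched without overlapping. Means were 32.6 ± 12.4 and 20.1 ± 3.82 (SD, n = 2 each). By limma the log2 difference was 0.63 ± 0.27 (SE) with all libraries and 0.25 ± 0.23 without SmoM2 replicate 1. By the authors' deposited table it is 0.50, adjusted p = 0.0028.

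**Figure D1:**
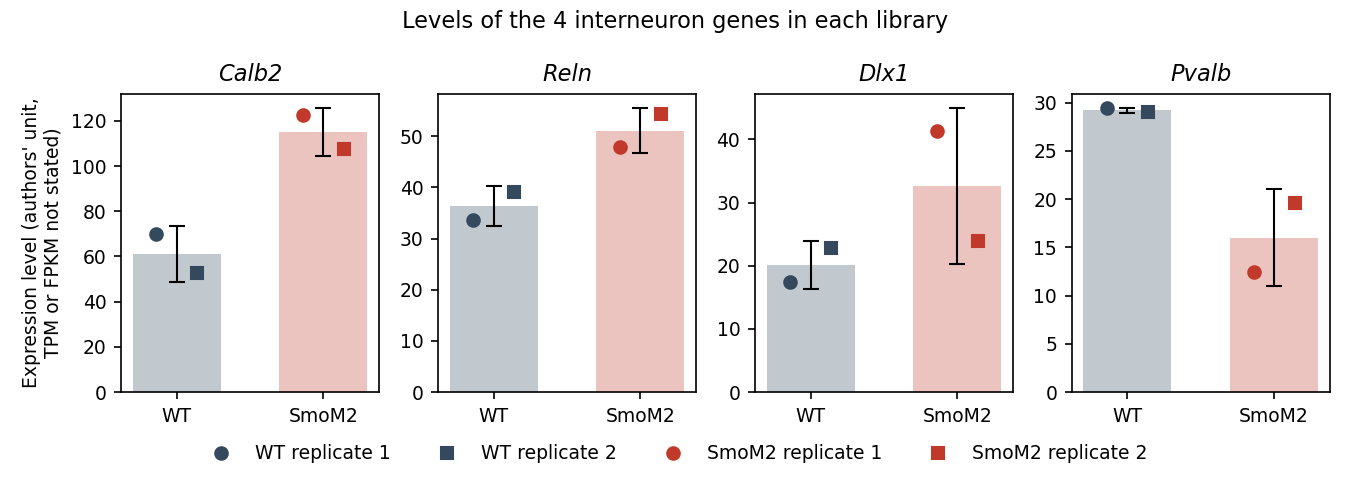
Expression level (authors' unit, linear axis from 0, 1 axis per gene) of Calb2, Reln, Dlx1 and Pvalb in WT and SmoM2. Bars are group means, error bars the SD over 2 samples, and points single libraries; Dlx1 in SmoM2 replicate 2, at 23.8, lies next to the WT samples, while both Pvalb values in SmoM2 lie below 29.0.

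With 2 samples a group the spread is poorly known, and the limma adjusted p-values, taken over 57010 tests, were 0.267 for Calb2, 0.407 for Pvalb, 0.445 for Reln and 1 for Dlx1. By that recalculation no gene of the 4 passed. It called 2 genes higher, 0.0413% of those fitted, and 4 lower, 0.0826%. Groups that do not overlap are common in the table: 49.5% of listed genes had both SmoM2 samples above both WT samples and 35.2% had both below. The groups did not overlap for any of the 4 genes, so leaving out any single library had to keep the sign of the difference. The range was 0.71 to 1.11 for Calb2, 0.37 to 0.59 for Reln, 0.25 to 1.02 for Dlx1 and -1.17 to -0.55 for Pvalb.

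**Figure D2:**
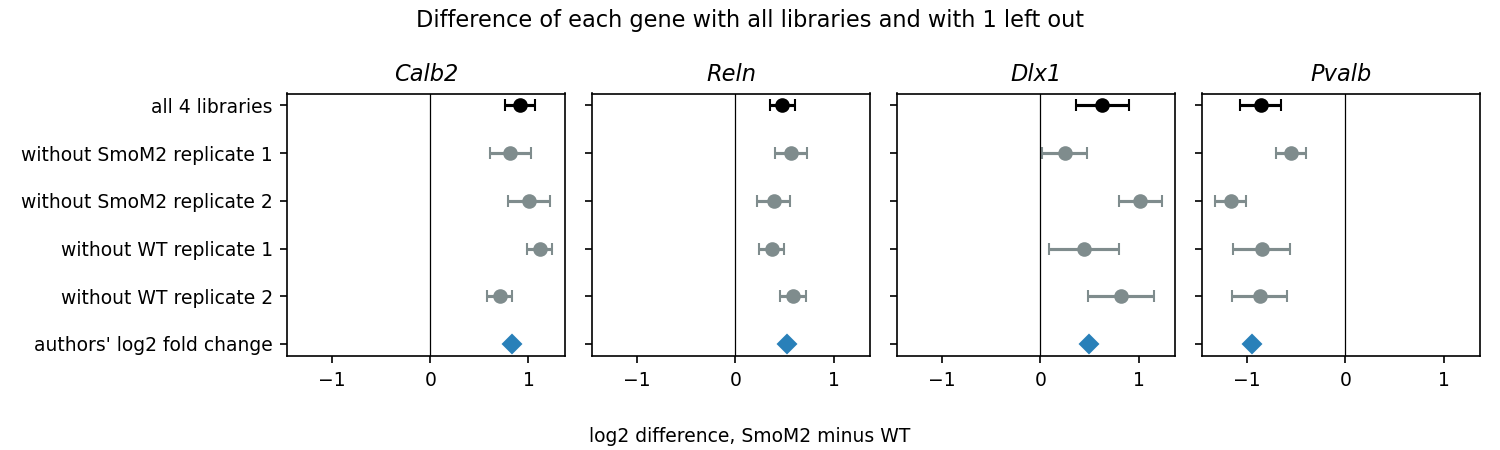
Log2 difference, SmoM2 minus WT, of each gene with all 4 libraries, with each library left out, and as the authors' deposited log2 fold change (diamonds). Circles are limma estimates on log2(level + 1) and bars their SE; the Dlx1 estimate without SmoM2 replicate 1, at 0.25, is the nearest to 0.

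On the authors' scale, taken as scaled for length, the order of levels in WT was Calb2, Reln, Pvalb, Dlx1, and no neighbouring pair overlapped. In SmoM2 it was Calb2, Reln, Dlx1, Pvalb, again without overlap between neighbours, since the lower Dlx1 value, 23.8, exceeded the higher Pvalb value, 19.6. The change of order between Dlx1 and Pvalb was not tested. Within a library, the ratio of 2 levels does not depend on the library's scaling. The ratio of Calb2 to Pvalb was 9.86 and 5.50 in SmoM2 and 2.38 and 1.81 in WT. The groups did not overlap, which had to follow from the levels of the 2 genes, and the log2 ratio differed by 1.83. The exact two-sided permutation test gave p = 0.333, which is the smallest p that 2 samples against 2 allow.

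Slc32a1, the gene of the vesicular transporter that loads GABA into synaptic vesicles and hence a gene shared by interneuron classes, was taken as a second reference after its values were seen. It read 81.7 and 101 in SmoM2 against 53.4 and 51.9 in WT. Which cells of the dissected tissue this RNA came from was not tested. Relative to Slc32a1, Pvalb was at 0.152 and 0.195 in SmoM2 and at 0.551 and 0.559 in WT. Reln was at 0.587 and 0.540 against 0.630 and 0.754, so that this ratio was lower in SmoM2 although the level of Reln was higher. The Calb2 ratio was 1.503 and 1.07 against 1.31 and 1.01, and that of Dlx1 was 0.507 and 0.237 against 0.326 and 0.439, both overlapping between groups. Thus Pvalb and Reln were lower relative to Slc32a1 in both SmoM2 samples, and Calb2 and Dlx1 did not separate the groups. For Pvalb this had to follow from the levels, since Pvalb was lower and Slc32a1 higher in SmoM2 without overlap. The exact two-sided permutation test gave p = 0.333 for Pvalb and for Reln, the smallest it can give here, 0.667 for Calb2 and 1 for Dlx1.

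**Figure D3:**
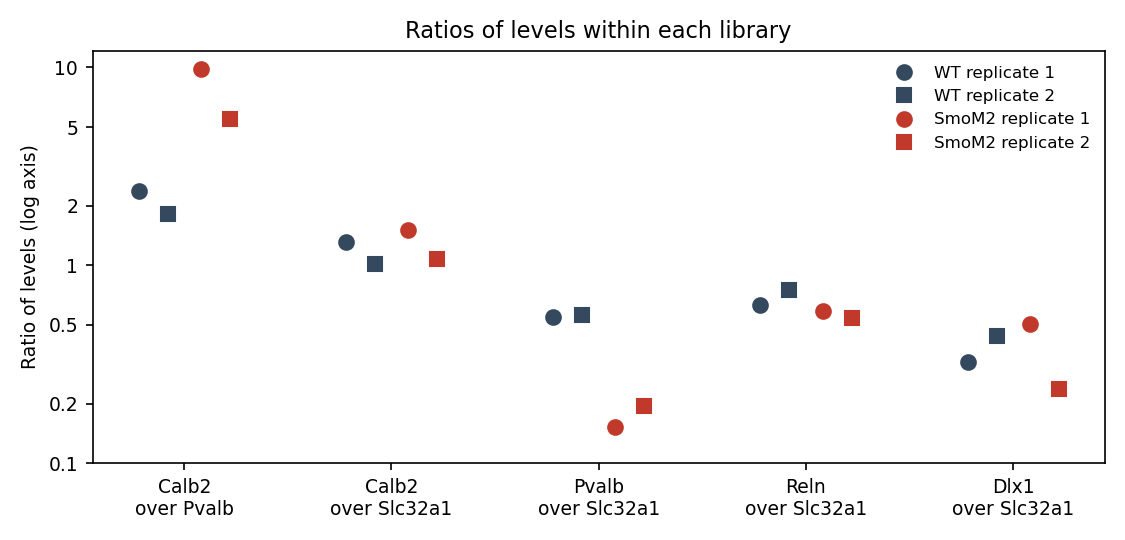
Ratio of the levels of Calb2 to Pvalb, and of each of the 4 genes to Slc32a1, in each library, on a log axis. Points are single libraries; the Pvalb to Slc32a1 ratio is at 0.195 or less in SmoM2 and at 0.551 or more in WT, while the groups overlap for Calb2 and Dlx1 over Slc32a1.

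Genes with related roles are given next, first the calcium buffers. Of 6 calcium buffers of interneurons, 3 had a row in the table. Calb2 and Necab2 rose and Pvalb fell. Necab2, which encodes a neuronal EF-hand protein, read 61.3 and 76.2 in SmoM2 against 54.5 and 34.9 in WT. Its log2 difference went from 0.63 to 0.32 without WT replicate 2 (limma). Both listed genes of GABA handling, out of 6, rose: Slc32a1, described above, and Slc6a11, a GABA transporter of astrocytes, which read 136 and 125 in SmoM2 against 90.6 and 89.7 in WT. Gad1 and Gad2, which encode the enzymes that make GABA, had no row and were not analysed here.

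The list of 23 transcription factors of the interneuron lineage holds Dlx1, and 12 others had a row. Of these 12, 10 were higher, against 53.2% of all listed genes. Of the same 12, 6 rose and 2 fell, against 21.3% and 16% of all listed genes. These 12 had a median of 0.54 on the log2 scale by the authors' deposited table, against 0.23 for all listed genes. Lhx8, a LIM-homeobox gene of the ventral forebrain that cholinergic neurons need, was low throughout, at 1.49 and 2.93 in SmoM2 and 0.44 and 0.24 in WT. Sp9, a zinc finger gene of developing interneurons, read 6.24 and 4.56 against 2.13 in both WT samples. Nr2f2, a nuclear receptor gene of interneurons from the caudal ganglionic eminence, where most calretinin cells arise, read 16.3 and 20.1 against 7.26 and 6.26, and its relative Nr2f1 read 95.0 and 101 against 52.3 and 57.7. These SmoM2 samples lay clear of WT. Sp8 rose too, but its groups overlapped and its log2 difference went from 0.38 to -0.13 without SmoM2 replicate 1 (limma).

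Dlx2, the neighbour and partner of Dlx1, read 12.01 and 8.24 in SmoM2 against 5.54 and 7.29 in WT, the same order of libraries as Dlx1. It missed the threshold, with 0.58 as its log2 fold change and 0.0549 as its adjusted p by the authors' deposited table. By limma its difference went from 0.57 to 0.33 on dropping SmoM2 replicate 1. For Dlx5 the authors' deposited table lists 0.50 and 0.339, and Dlx6 had no row. The other direction was taken by Prox1, which read 3.16 and 3.75 in SmoM2 against 5.73 and 5.42 in WT and which also belongs to interneurons of the caudal ganglionic eminence. Mef2c, the list's most abundant gene, fell, although its groups overlapped, and its log2 difference went from -0.20 to 0.04 without WT replicate 2 (limma).

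Of 17 peptide and subtype genes of interneurons, 9 had a row and 6 of these were lower, against 46.8% of all listed genes, a difference that was not tested. Of the 9, 2 rose and 5 fell, against 21.3% and 16% of all listed genes. The median by the authors' deposited table was -0.38 on the log2 scale. Sst, the peptide gene of the class that shares its origin with parvalbumin cells, rose by 0.33 on the log2 scale, and Nos1 by 0.53 (authors' deposited table). The genes that fell were Vip, Npy, Cnr1, Lamp5 and Id2. Vip, which many calretinin interneurons also express, read 27.1 and 31.3 in SmoM2 against 41.4 and 51.1 in WT, opposite to Calb2. Lamp5 and Id2, genes of neurogliaform cells, read 101 and 137 against 152 and 196, and 156 and 93.3 against 210 and 229. By limma, Lamp5 went from -0.54 to -0.32 on dropping SmoM2 replicate 1 and to -0.36 on dropping WT replicate 2, while Id2 went from -0.86 to -0.49 on dropping SmoM2 replicate 2.

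Genes of fast-spiking cells and of the perineuronal net, the matrix coat that forms around parvalbumin cells as they mature, were lower in all 9 of 19 with a row, against 46.8% of all listed genes. Without WT replicate 2, a count chosen after seeing the data, 1 of the 9 was higher by level: Erbb4, a receptor gene of interneurons, whose log2 difference went from -0.08 to 0.19 (limma). Of the 9 genes 4 fell, Kcna2, Scn1a, Kcnc2 and Tnr, against 16% of all listed genes. The median by the authors' deposited table was -0.36 on the log2 scale. Kcnc2, a potassium channel gene that supports fast spiking, read 19.3 and 20.9 in SmoM2 against 23.7 and 28.2 in WT. Scn1a, the sodium channel gene most used by parvalbumin cells, read 14.8 and 13.6 against 14.9 and 20.97. Each of the 4 genes was highest in WT replicate 2. Without that library the log2 differences went from -0.35 to -0.23 for Kcnc2, from -0.30 to -0.07 for Scn1a, from -0.41 to -0.20 for Kcna2 and from -0.27 to -0.07 for Tnr (limma). For Pvalb, whose WT samples read alike, the difference was -0.87 without that library.

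**Figure D4:**
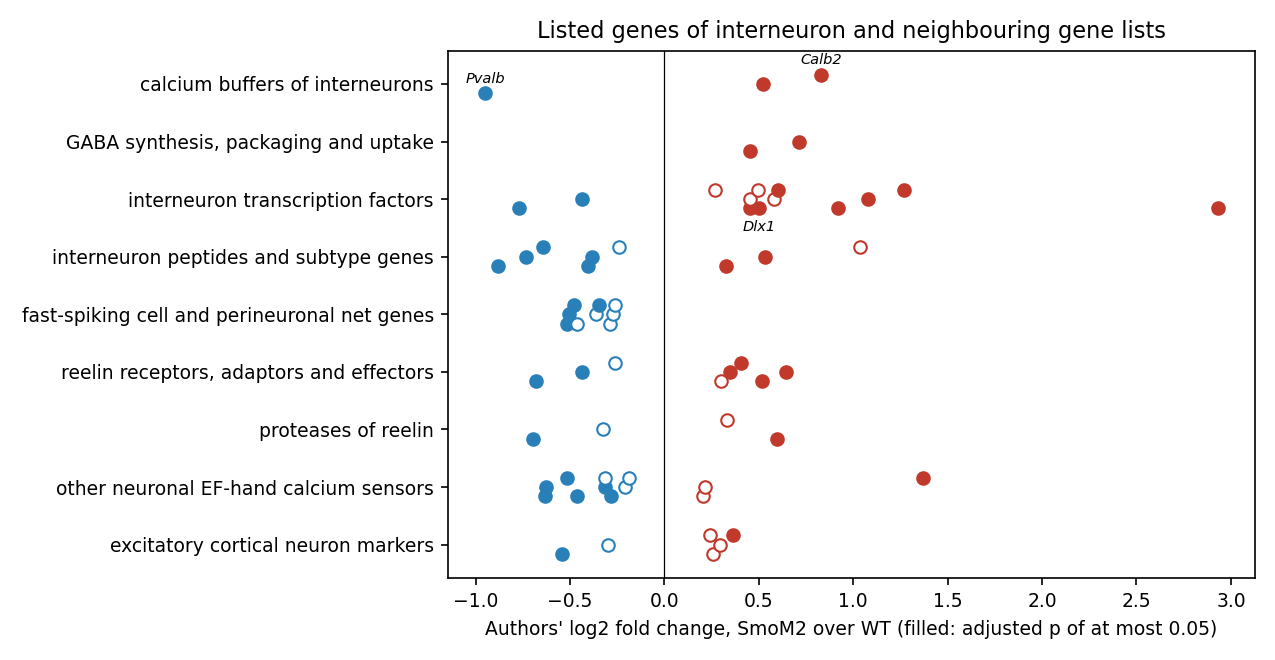
Authors' deposited log2 fold change, SmoM2 over WT, of each listed gene in 9 gene lists; filled points have an adjusted p of at most 0.05. Transcription factors of interneurons lie mostly above 0 and genes of fast-spiking cells all lie below 0, the lowest of them at -0.52.

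Around Reln, the receptors, adaptors and effectors of reelin had 8 of 20 genes in the table. Of these, 4 rose and 2 fell, against 21.3% and 16% of all listed genes. Efnb1, Efnb3, Limk1 and Src rose, and Rap1a and Cul5 fell. Efnb3, an ephrin gene, read 100 and 118 in SmoM2 against 76.3 and 67.7 in WT. Src, a kinase that phosphorylates the reelin adaptor, read 55.6 and 55.7 against 38.3 and 41.1. Rap1a, a small GTPase gene downstream of that adaptor, read 37.7 and 27.0 against 51.2 and 41.5, and its log2 difference went from -0.52 to -0.28 without SmoM2 replicate 2 (limma). Lrp8, which encodes the reelin receptor ApoER2, read 31.4 and 24.6 against 17.3 and 22.8 and missed the threshold (authors' deposited table, adjusted p = 0.12). Its limma estimate went from 0.47 to 0.30 on dropping SmoM2 replicate 1 and to 0.28 on dropping WT replicate 1. Vldlr, the other receptor gene, and Dab1, the adaptor gene, had no row and were not analysed here.

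Markers of other sources of these transcripts moved as well. Of 9 Cajal-Retzius markers 4 had a row. Cacna2d2 rose beside Reln and Calb2, at 17.3 and 17.7 in SmoM2 and 11.0 and 8.69 in WT. Ebf3 was at most 0.64 in any library, and the defining genes Trp73, Lhx1 and Lhx5 had no row. Olfactory bulb interneuron and neuroblast markers had 13 of 15 genes in the table. The list holds Calb2 and shares Sp8 and Sp9 with the transcription factors. Of the 12 genes other than Calb2, 9 rose and 1 fell, against 21.3% and 16% of all listed genes. With Calb2 included, the summed level was 448 and 360 in SmoM2 and 264 and 252 in WT. Calb2 itself made up 123 and 108 of the SmoM2 sums and 70.0 and 52.5 of the WT sums.

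Olfactory bulb output neuron markers were high in a single library. All 4 with a row, of 7, rose, with a summed level of 49.7 in SmoM2 replicate 1, 11.7 in replicate 2 and 7.94 and 6.77 in WT. Cdhr1, a cadherin-related gene of mitral and tufted cells, read 23.4 and 7.58 in SmoM2 against 4.64 and 4.07 in WT. Th, the tyrosine hydroxylase gene of bulb periglomerular cells, read 10.3 and 2.65 against 2.97 and 3.43. SmoM2 replicate 1 was thus the library highest in bulb markers and also the highest for Dlx1 and Calb2 and the lowest for Pvalb. The part of bulb tissue in these results was not tested. In SmoM2 replicate 2 some bulb genes were also above both WT samples: Cdhr1 was 1.74 times the WT mean, Doc2g 1.58 times and Tshz1 1.26 times. Th and Eomes were below both, at 0.828 and 0.283 times. In the same library Calb2 was 1.76 times the WT mean, Reln 1.49 times, Dlx1 1.19 times and Pvalb 0.67 times.

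Striatal markers stood out in the other SmoM2 library. Penk, the enkephalin gene, read 109 and 209 in SmoM2 against 146 and 61.9 in WT, and Adora2a, an adenosine receptor gene of the same neurons, read 18.0 and 51.6 against 28.1 and 12.9. Both were called as rising although their groups overlapped. Lhx8 was also highest in SmoM2 replicate 2. The part of striatal tissue in the values of the 4 interneuron genes was not tested.

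**Figure D5:**
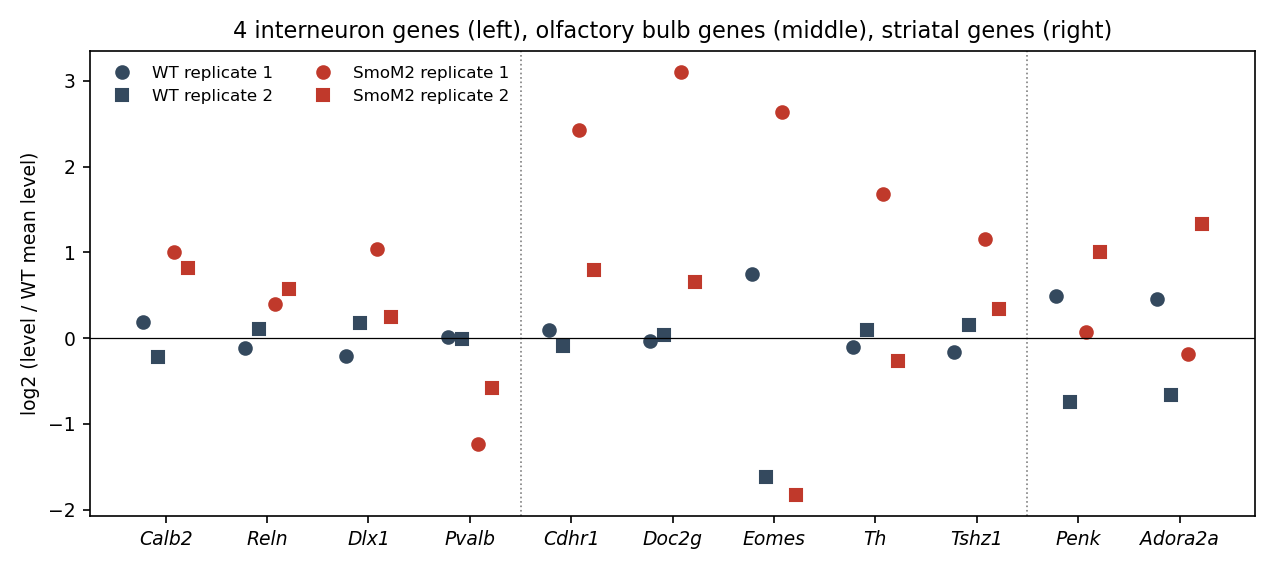
Log2 of the level over the WT mean in each library, for the 4 interneuron genes (left), olfactory bulb genes (middle) and striatal genes (right). SmoM2 replicate 1 is high for the bulb genes and for Dlx1, and SmoM2 replicate 2 for the striatal genes.

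The dissected tissue was otherwise read from the listed genes alone. Cortical excitatory markers had 6 of 14 genes in the table, with 1 that rose and 1 that fell. All 12 myelin genes of the list fell, all 11 listed leptomeningeal genes of 12 rose, and of 8 listed choroid plexus genes of 10, 6 fell. These shifts run with the genotype in the same libraries as the interneuron genes, and their part in the results above was not tested. Summed levels of leptomeningeal markers ran from 425 to 1052 in WT and from 1894 to 1943 in SmoM2. Most of each leptomeningeal sum was Ptgds: 933 for WT replicate 1, 313 for WT replicate 2, 1641 for SmoM2 replicate 1 and 1728 for SmoM2 replicate 2. The sums of choroid plexus markers ran from 1369 to 1404 for WT and from 153 to 727 for SmoM2. Ttr supplied most of these sums, with 1203, 1162 and 618 for WT replicate 1, WT replicate 2 and SmoM2 replicate 2. The exception was SmoM2 replicate 1, where Ttr was 71.2 and Enpp2 75.2.

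Profiles over the 4 libraries were compared on log2(level + 1), each gene centred on its own mean, by the largest difference in any library, among 3793 genes. Most like Calb2 were Cnn2, Smoc1 and Acta2, within 0.06, 0.07 and 0.09. Most like Reln were Efna2, Cers1 and Nipal3, within 0.01, 0.02 and 0.02. Those nearest to Dlx1 were Gja4, Shisa8 and Tshz1, within 0.04, 0.05 and 0.08, and those nearest to Pvalb were Ppp1ccb, Rpl10a-ps1 and Lyplal1, each within 0.17. Rpl10a-ps1 is named as a pseudogene and may share reads with its parent. The 4 genes differed in how common their profile was: 988 genes, 26.0%, lay within 0.2 of Reln, against 43 for Calb2, 12 for Dlx1 and 5 for Pvalb. With 4 libraries such likeness is a description of these samples.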

How the data were processed

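RNA of 4 samples was sequenced from TruSeq libraries made with 1 ug of total RNA, per the labels' protocols. Per the submitters' processing notes, RSEM and DESeq2 were used with GRCm38.p6, and versions and roles are not given in the sources used here. The deposited table holds, per the file headers, each sample's expression level, the authors' fold change (a ratio, also as log2) and their p-values before and after adjustment. No gene in the deposited table has an unadjusted p above 0.049997. Columns were tied to samples by the pairing in the series text. Depth is unknown, since the deposited levels are not counts. The authors' adjusted p-values correspond to 57010 tests, the number used here too.

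The 4 genes and the 19 lists were chosen with earlier results of these data known. limma 3.58.1 in R 4.3.3, with a mean-variance trend, was fitted on log2(level + 1) for the 4845 genes whose level averaged 1 or more. Fold changes on that scale understate the change of low genes. A run on simulated data gave every gene the same noise, so it does not show how the fit performs on genes listed for a low p. Named genes are the 4, Smo, the 3 most alike profiles (mean level of at least 5), and per list up to 4 called genes of largest fold change and the gene of highest level. Other list members in the text were chosen after their values were seen. Of the identifiers, 5226 were found in GENCODE M21 and 56 were not. Alternatives were pseudocounts of 0.1 and 5, no filter, a minimum of 5, equal medians, quantile normalization, a replicate block and leaving out each library. Some list members are not reported here.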

Additional observations from a re-analysis of the deposited data

How the results depend on the processing

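Calb2, Reln and Dlx1 stayed higher and Pvalb lower under all 12 alternatives for each, the authors' deposited fold change among them. Since the groups did not overlap, of the limma fits only equal medians and quantile normalization could have reversed a sign. None of the 4 passed in any limma fit with all 4 libraries. All 4 passed in the authors' deposited table, where the log2 fold changes were 0.83, 0.53, 0.50 and -0.95. In the fits with a library left out, the lone sample of its group is assumed to vary like the other group. The log2 ratio of Calb2 to Pvalb ran from 1.41 to 2.25 with a library left out. limma called 2 genes higher and 4 lower at an adjusted p of at most 0.05, and 2687 of 4845 genes fitted had an unadjusted p under 0.05. Every listed gene had an authors' unadjusted p under 0.05 in the same libraries, so counts by unadjusted p are high by selection. With a pseudocount of 5 or a minimum level of 5 limma called 1 higher. It called 0 higher and 0 lower without the filter, with equal medians and with quantile normalization, where 2811, 2759 and 2768 genes had an unadjusted p under 0.05. With a library left out it called 0 higher and from 0 to 2 lower, with 1465 to 2248 genes at an unadjusted p under 0.05. The authors' deposited table called 1124 higher and 844 lower. The replicate block gave 10 higher and 10 lower, and same-numbered samples did not deviate together (correlation -0.09 across genes), so the numbers were not taken as pairs. Equal medians lowered the median log2 difference by 0.11 (-0.11) and turned the split of genes at an unadjusted p under 0.05 from 1970 higher and 717 lower to 1299 and 1460. The median of the reelin protease list, 0.053, became -0.051 with equal medians and -0.048 with quantile normalization, and ran from -0.014 to 0.098 with a library left out (lowest without SmoM2 replicate 2). That of the thalamic list, -0.11, ran from -0.26 to 0.16 (highest without WT replicate 2). The cause was not tested.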

Other observations

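Calcium sensors have the same EF-hand fold as calretinin and parvalbumin but relay rather than buffer calcium. The table held 12 of the 19 in this list. Of these 9 were lower in SmoM2, against 46.8% of all listed genes, while 1 rose and 6 fell, against 21.3% and 16% of all listed genes. The median by the authors' deposited table was -0.30 on the log2 scale. By limma it was -0.22, and it was -0.12 without SmoM2 replicate 1, -0.15 without WT replicate 1, -0.33 with equal medians and -0.35 with quantile normalization. Hpcal1, a neuronal calcium sensor of the visinin-like family, was the gene that rose, at 67.4 and 104 in SmoM2 and 37.4 and 25.2 in WT, and both SmoM2 samples lay clear of WT. Vsnl1, a relative of it, read 480 and 523 against 678 and 681, and Ppp3r1, the regulatory subunit of calcineurin, read 419 and 455 against 618 and 661. Kcnip4, a potassium channel partner, read 35.7 and 33.6 against 46.3 and 56.4. Cabp7 fell although its groups overlapped.

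Proteases that cut reelin had 4 of 5 genes in the table. Adamts2 rose, at 4.44 and 3.85 in SmoM2 and 2.72 and 2.57 in WT, and Adamts4, which oligodendrocytes also make, fell, at 7.63 and 8.04 against 11.6 and 12.2. Adamts3 and Plat missed the threshold, at 0.33 and -0.33 on the log2 scale by the authors' deposited table. Of 8 thalamic markers, 4 had a row and Rora fell although its groups overlapped. Of 9 genes of growing neurons, 7 had a row, and 6 of these rose. Dcx, which migrating neuroblasts express, read 21.5 in SmoM2 replicate 1 and 14.2 in replicate 2, against 11.9 and 14.02 in WT. Its order of libraries was that of Dlx1, and its limma estimate fell from 0.41 to 0.12 on dropping SmoM2 replicate 1. All 7 listed oligodendrocyte precursor genes of 10 were higher and 3 rose.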
